A study of Mus musculus with 2 samples.

Results

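Fasl, Tnfsf10, Tnf, Lta and Ltb, the death ligands and lymphotoxins of the TNF superfamily, were followed in natural killer (NK) cells that had infiltrated mouse tumors. These 5 of the 27998 gene symbols listed in each count table were chosen by name and not by their values. Earlier results of these data were known when they were chosen, and all 5 were listed in both tables. The cells came from RMA-S tumors, grown under the skin of mice for 2 weeks. RMA-S is a lymphoma line that displays little MHC class I, which makes it a target of NK cells. Flow cytometry had selected NK1.1-positive cells lacking CD3ε, and the libraries were of the 10x Chromium 3′ kind, in which each captured transcript carries a unique molecular identifier (UMI). The KO library came from NK-Hif1a-/- mice, which lack Hif1a, a subunit of the hypoxia-inducible transcription factor, in NK cells. The WT library came from wild-type mice bearing the same tumor. The promoter that drove the deletion, the number, age and sex of the mice and any pooling are not given in the sources at hand. With 1 library per genotype no test between genotypes was possible, so each difference below describes these 2 libraries. Every interval is a 95% interval for counting error alone.

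TNF superfamily ligands are mostly made as membrane proteins that act as trimers on receptors of neighbouring cells, and some are cut loose by proteases. Fas ligand and TRAIL bind receptors with a death domain and can start caspase-driven apoptosis of the target cell, which gives NK cells a way to kill beside the release of perforin and granzymes. TNF signals through TNFR1 and TNFR2. Lymphotoxin alpha binds the TNF receptors when secreted, and together with lymphotoxin beta it forms a membrane complex that binds the lymphotoxin beta receptor and organises lymphoid tissue.

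After barcodes with fewer than 500 detected genes or more than 10% mitochondrial UMIs had been left out, 3067 KO and 3555 WT cells remained, and 19 barcode sequences occurred in both. NK-like cells made up 94.1% of the KO cells (2886 cells, median 3747.5 UMIs) and 92.7% of the WT cells (3296 cells, median 4417.5 UMIs). The defining NK gene Ncr1 was seen in 70.8% of the NK-like cells of the KO library and 75.3% of those of the WT library, and Cd3e in 0.139% and 0.455%. Other CD3 chain genes were seen more often and differed between the libraries, with Cd3d in 5.16% and Cd3g in 3.71% of NK-like cells in KO, against 10.0% and 10.5% in WT. The part of these cells in the differences below was not tested. Hif1a itself stood at 60.1 CPM (counts per 1000000 UMIs of the summed cells) in KO and 58.7 CPM in WT NK-like cells. A 3′ tag can lie outside the deleted exons, so its level is no check of the deletion. In the NK-like sums, 10 early response genes such as Nr4a1 and Egr1 totalled 3377 CPM in the KO library and 884 CPM in the WT library. For 8 heat shock list genes the totals were 1522 CPM in KO and 2685 CPM in WT, and for 9 cycling genes 230.0 CPM in KO and 641 CPM in WT. Whether these states had a part in the differences below was not tested, except where a value within sub-clusters is given.

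Among NK-like cells, Fasl and Tnf were higher in the KO library than in the WT library, Ltb was at nearly the same level, and Tnfsf10 and Lta had too few UMIs for a direction. Fas ligand, the product of Fasl, triggers the death receptor Fas. Fasl had 1801 UMIs (147 CPM, 140 to 154) in NK-like cells of the KO library and 2045 UMIs (114 CPM, 109 to 119) in those of the WT library. The intervals did not overlap, and the log2 ratio of KO over WT, taken with 1 CPM added to each side, was 0.37 (0.28 to 0.46), a 1.29-fold difference. The 10 cells with the most Fasl UMIs held 3.00% of them in KO and 2.30% in WT, and without those cells the log2 ratio was 0.35. Exactly 1 UMI was found in 821 KO and 980 WT cells, and at least 4 in 32 KO and 30 WT cells. No NK-like cell held more than 8.

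Tnf encodes the cytokine TNF. It had 141 UMIs (11.5 CPM, 9.68 to 13.6) in NK-like cells of the KO library and 124 UMIs (6.90 CPM, 5.74 to 8.23) in those of the WT library. The log2 ratio was 0.66 (0.38 to 1.10). Of 116 KO and 102 WT cells with any Tnf UMI, 97 and 87 held a single one, so the gene was seen as a sparse signal in both libraries. The ratio kept its sign in all 17 alternative settings tried but lay under 1.5-fold in 5 of them, at the lowest 0.35 with 10 CPM added.

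Ltb, which encodes the membrane-bound lymphotoxin beta, had 1391 UMIs (113 CPM, 108 to 120) in NK-like cells of the KO library and 2063 UMIs (115 CPM, 110 to 120) in those of the WT library. The log2 ratio was -0.02 (-0.12 to 0.08), an interval on both sides of 0. Unlike Fasl, Ltb had a tail of cells with many UMIs: 85 KO and 156 WT cells held at least 4, and the highest cell held 15 in KO and 28 in WT. When each KO sub-cluster was given its share of cells in the WT library (the WT make-up), the Ltb log2 ratio was 0.14, but -0.10 with the 2 sub-clusters of under 50 cells in a library left out of both.

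Tnfsf10 encodes TRAIL, the ligand of the death receptor Tnfrsf10b in mice. It had 39 UMIs (3.18 CPM, 2.26 to 4.35) in NK-like cells of the KO library and 48 UMIs (2.67 CPM, 1.97 to 3.54) in those of the WT library. The log2 ratio was 0.19 (-0.40 to 0.89). Lta, which encodes lymphotoxin alpha, had 10 UMIs in KO cells, or 0.815 CPM (0.391 to 1.5), and 27 UMIs in WT cells, or 1.5 CPM (0.990 to 2.19), a log2 ratio of -0.46 (-2.09 to 0.21). The KO and WT intervals overlapped for both genes, and these sums showed no difference beyond counting error.

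Read against all genes, Tnf and Fasl lay in the upper part of the ratios and Ltb near their middle. Of the 5, Fasl, Tnf and Ltb reached 200 UMIs over both libraries, the minimum set for counting folds. Among the 7975 genes that did, 457 (5.73%) were higher in KO by 1.5-fold or more and 209 (2.62%) were lower by as much, with a median log2 ratio of 0.04. With TMM scaling, which places the median at -0.02, these counts were 357 and 273. Tnf alone of the 3 was past 1.5-fold, upward, and none was past it downward. The share of tested genes with a ratio at or above that of the ligand was 4.33% for Tnf and 14.2% for Fasl, and 41.0% of genes had a ratio at or below that of Ltb.

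**Figure D1:**
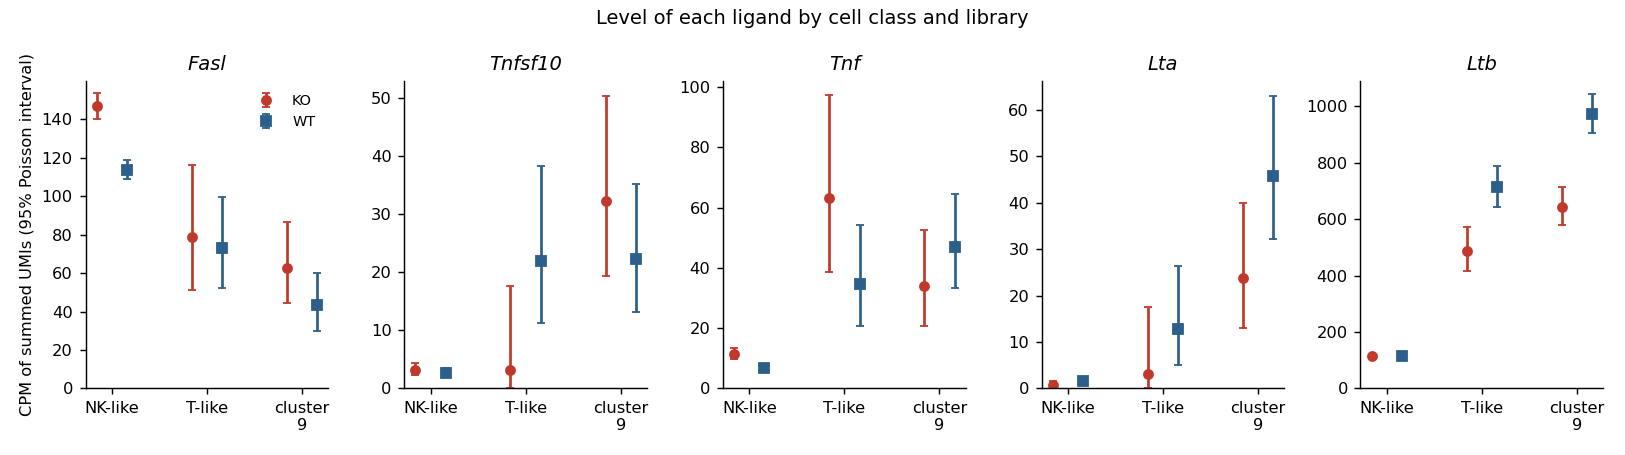
Level of each ligand, in CPM of summed UMIs, in NK-like cells, T-like cells and cluster 9 of the KO (circles) and WT (squares) libraries, with 95% Poisson intervals. Fasl was highest in NK-like cells, at 147 CPM in KO and 114 CPM in WT, whereas Ltb was highest in cluster 9, at 645 CPM in KO and 973 CPM in WT; each panel has its own scale.

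The share of cells in which a ligand was seen depended on depth. Before thinning, a Fasl UMI was found in 42.6% of NK-like cells in the KO library and in 43.6% in the WT library. After each cell had been thinned to 2500 UMIs, which left out 401 KO and 89 WT cells as too shallow, a Fasl UMI was found in 29.9% of the 2485 KO cells (28.1% to 31.8%) against 25.3% of the 3207 WT cells (23.8% to 26.9%). The difference was 4.62 percentage points (2.28 to 6.97), and the thinned order followed the CPM. For Tnf the thinned shares were 2.78% in KO and 1.56% in WT, a difference of 1.22 points (0.46 to 2.03). Ltb was seen in 17.9% of thinned cells of either library, and the difference had an interval of -1.96 to 2.06 points. Tnfsf10 was seen in 0.805% of KO and 0.717% of WT thinned cells, and Lta in 0.241% of KO and 0.281% of WT thinned cells. Without cycling cells the Lta shares were 0.0875% in KO and 0.379% in WT, a difference of -0.29 points with an interval just below 0 (-0.615 to -0.00291), whereas the Lta interval spanned 0 in the other 4 settings.

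Free RNA in the droplets was gauged in barcodes that the filter had left out and in which hemoglobin genes held over 50% of UMIs, 34 of them KO and 17 of them WT, with median depths of 4920 and 4557 UMIs. The KO barcodes held 2 Fasl UMIs and no Ltb UMI, and the WT barcodes 1 of each. After thinning, 1 of 25 KO barcodes (4%, 0.101% to 20.4%) and 0 of 17 WT barcodes had a Fasl UMI. No Tnf, Lta or Tnfsf10 UMI was found in them, and a count of 0 of 25 allows a share of up to 12%. Ltb was seen in 0 of 25 KO and 1 of 17 WT barcodes after thinning. The WT interval (0.149% to 28.7%) holds the 17.9% of WT NK-like cells with Ltb. With so few barcodes, the shares of Tnf, Lta and Tnfsf10 in NK-like cells, and that of Ltb in WT, lie under what this background could show.

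Fasl lies on chromosome 1 (161780689 to 161788495, minus strand, GRCm38) with 4 exons in its longest transcript, and Tnfsf10 on chromosome 3 (27317028 to 27342427, plus strand) with 5. The other 3 genes are neighbours on chromosome 17, within 10913 bases. Ltb (35194439 to 35196320) is on the plus strand, and Tnf (35199381 to 35202007) and Lta (35203165 to 35205351) are on the minus strand. The gaps are 3060 bases between Ltb and Tnf and 1157 bases between Tnf and Lta. In GENCODE M21 none of the 5 overlaps another gene except a microRNA each inside Ltb and Lta. The log2 intervals of the KO to WT ratios of Tnf (0.38 to 1.10) and Ltb (-0.12 to 0.08) did not overlap, while that of Lta (-2.09 to 0.21) held the whole Ltb interval.

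Because the deleted gene encodes a DNA-binding factor, the 250 bases before the RefSeq start of each gene were searched on both strands. The motifs were the hypoxia response core (ACGTG or GCGTG), the core bound by NFAT (GGAAA) and an NF-kB pattern (GGGNNNNNCC). The stretches of the 3 ligands with enough UMIs are shown 5′ to 3′ along the gene's own strand (RefSeq, GRCm38.p6), with GGAAA, GGGNNNNNCC and their reverse complements in capitals. They span chr1:161788496-161788745 (minus) for Fasl, chr17:35202008-35202257 (minus) for Tnf and chr17:35194257-35194438 (plus) for Ltb. The Ltb stretch stops where the GENCODE gene begins, 68 bases before the RefSeq start.
Fasl: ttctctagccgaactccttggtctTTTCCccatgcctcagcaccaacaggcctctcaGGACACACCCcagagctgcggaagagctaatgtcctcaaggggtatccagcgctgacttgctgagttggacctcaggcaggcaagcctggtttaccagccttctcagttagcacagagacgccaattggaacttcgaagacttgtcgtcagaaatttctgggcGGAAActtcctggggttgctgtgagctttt
Tnf: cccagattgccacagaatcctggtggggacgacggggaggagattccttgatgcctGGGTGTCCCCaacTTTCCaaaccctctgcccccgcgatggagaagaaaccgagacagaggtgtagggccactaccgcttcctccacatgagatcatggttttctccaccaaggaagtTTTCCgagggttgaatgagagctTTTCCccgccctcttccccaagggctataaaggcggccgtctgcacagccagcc
Ltb: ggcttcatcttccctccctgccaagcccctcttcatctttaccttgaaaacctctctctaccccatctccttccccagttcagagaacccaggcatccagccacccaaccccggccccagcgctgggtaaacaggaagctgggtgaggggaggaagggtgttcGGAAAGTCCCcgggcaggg

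Neither hypoxia response core was found in the 250 bases of any of the 5 genes, whereas 38.6% of all 32851 promoter windows of that length held at least 1. GGAAA was found in all 5, with 3 matches in Tnf, 2 each in Fasl and Lta and 1 each in Tnfsf10 and Ltb, and in 55.6% of all windows. The NF-kB pattern was found in Fasl (1 match), Tnf (2), Lta (2) and Ltb (5), not in Tnfsf10, and in 45.8% of all windows. In Ltb the GGAAA lies inside an NF-kB match. The 2 Tnf matches are the same bases read on both strands, and 4 of the 5 Ltb matches lie past the printed stretch and overlap each other. A match describes letters and does not show binding, and a missing one says nothing of sites elsewhere.

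NK-like cells fell into 8 sub-clusters, drawn without the 5 ligands among the clustering genes, and 6 of these had at least 50 cells in each library. Sub-cluster 0 (led by Gadd45b, Csrnp1, Nr4a1 and Nfkbid) held 1194 KO and 146 WT cells. Sub-cluster 1 (Cd27, Emb, Sft2d2, Tcf7) held 287 KO and 831 WT cells, and sub-cluster 2 (Hbb-bs, Zfp512 and Ly6e, beside Ltb itself) 471 KO and 425 WT cells. Sub-cluster 3, led by the heat shock genes Hspa1a and Hspa1b with Fos and Gm26802, held 208 KO and 682 WT cells. Sub-clusters 4 (Klrg1, Itgb2, Ccl5, Prf1) and 5 (S1pr5, Gpx8, Ly6c2, Fgl2), which carry genes of mature NK cells, held 77 KO and 611 WT cells and 202 KO and 448 WT cells. The 2 left out were sub-cluster 6 (Ier5l, Cxcr4, Trf, Sult2b1), with 428 KO and 21 WT cells, and sub-cluster 7 (Gzmg, Gzme, Gzmf, Gzmd), with 19 KO and 132 WT cells. Sub-cluster 7 also had the highest sum of cycling genes among the 8, at 4022 CPM in KO and 4042 CPM in WT. Its cells were deep, with a median of 14826 UMIs in KO and 13384.5 UMIs in WT. Different sub-clusters thus held most cells of each library, and some may mark a library rather than a kind of cell.

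Within these 6 sub-clusters Fasl was higher in KO than in WT cells each time, and the sub-clusters led by mature NK genes had the highest levels. In sub-cluster 4 Fasl stood at 252 CPM in KO and 151 CPM in WT, and in sub-cluster 5 at 218 CPM in KO and 163 CPM in WT. The next were sub-cluster 3, at 194 CPM in KO and 119 CPM in WT, and sub-cluster 0, at 153 CPM in KO and 127 CPM in WT. In sub-cluster 2 the levels were 146 CPM in KO and 87.0 CPM in WT, and in sub-cluster 1 they were 124 CPM in KO and 98.7 CPM in WT. Log2 ratios lay between 0.27 and 0.74, and the counting interval was above 0 in 5 of the 6, all but sub-cluster 0 (-0.06 to 0.61). Sub-cluster 7, with 13 KO and 150 WT UMIs, went the other way at -0.48, with an interval across 0 (-1.43 to 0.33).

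The Fasl difference was larger when the make-up of the libraries was held equal. Once each KO sub-cluster had been given its WT share of cells, the log2 ratio was 0.49, and 0.54 with the 2 small sub-clusters left out of both libraries. The early response genes totalled more in KO than in WT cells within each sub-cluster too, 6059 and 3945 CPM in sub-cluster 0 and 882 and 476 CPM in sub-cluster 5. Their part in the Fasl difference was not tested. From the highest to the lowest sub-cluster, Fasl spanned 2.03-fold (1.54 to 2.64) in the KO library and 1.87-fold (1.58 to 2.22) in the WT library. At a coarser resolution with 2 sub-clusters of 50 or more cells the spans were 1.16-fold and 1.08-fold.

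Ltb varied more across these 6 sub-clusters than between genotypes within any of them. In WT the order of the 6 levels was the reverse of that of Fasl. Intervals of some neighbouring levels overlapped in both genes, such as WT Ltb in sub-clusters 1 (134 to 156 CPM) and 3 (124 to 151 CPM). The exact order is therefore not settled. In KO sub-clusters 4 and 5 were again high in Fasl and low in Ltb, but sub-cluster 3 exceeded sub-cluster 0, and sub-cluster 2 exceeded sub-cluster 1, in both genes. The Fasl intervals of each of these pairs overlapped. Ltb was highest in sub-cluster 2, at 239 CPM in KO and 223 CPM in WT, and next in sub-cluster 1, at 146 CPM in KO and 145 CPM in WT. It was lowest in sub-clusters 4 and 5, at 32.7 and 34.9 CPM in KO and 30.7 and 29.5 CPM in WT. The span was 7.32-fold (3.94 to 15.4) in KO and 7.57-fold (5.83 to 9.98) in WT, and 1.85-fold and 1.70-fold at the coarser resolution. Ltb was not among the genes used for clustering, although genes that vary with it were. In WT, but not in KO, sub-cluster 2 also held the highest sum of 6 erythroid markers among the 8 sub-clusters, 301 CPM in KO and 3316 CPM in WT. The part of that sum in the Ltb level was not tested.

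The KO and WT counting intervals of Ltb did not overlap in sub-clusters 3 and 7. In sub-cluster 3 Ltb stood at 81.6 CPM in KO (54 UMIs) and 137 CPM in WT (397 UMIs), a log2 ratio of -0.74 (-1.18 to -0.33). In sub-cluster 7 it stood at 265 CPM in KO (67 UMIs) and 96.3 CPM in WT (200 UMIs), a log2 ratio of 1.45 (1.04 to 1.87). Only 19 KO cells belonged to sub-cluster 7, and 10 of them held all 67 KO Ltb UMIs, so its counting interval is too narrow. Ltb was seen in 52.6% of KO cells (28.9% to 75.6%) and 47.7% of WT cells (39.0% to 56.6%) of sub-cluster 7. The dendritic cell markers (8 genes, among them H2-Aa and Cd74) summed there to 946 CPM in KO and 134 CPM in WT. Their part in the Ltb difference was not tested.

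The Tnf difference was uneven across sub-clusters. In sub-cluster 0, 65 UMIs were found in KO and 1 in WT cells, or 13.8 and 1.51 CPM. In sub-cluster 1, 25 UMIs in KO and 36 in WT cells gave 14.7 CPM in KO and 7.56 CPM in WT, a log2 ratio of 0.87 (0.16 to 1.73). Sub-cluster 5 had 9.96 CPM in KO and 3.27 CPM in WT, from 8 and 7 UMIs. In sub-clusters 2, 3 and 4 the KO level was the lower, from 14, 5 and 1 KO UMIs and 21, 28 and 13 WT UMIs, and all 3 intervals spanned a ratio of 1. Tnf was therefore higher in KO cells in 3 of the 6 sub-clusters, against 6 of 6 for Fasl. In the small sub-cluster 7 it stood at 27.7 CPM in KO (7 UMIs) and 8.67 CPM in WT (18 UMIs), a log2 ratio of 1.57 (0.17 to 3.00), and in sub-cluster 6 at 8.35 CPM in KO (16 UMIs) with no UMI among the 21 WT cells.

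**Figure D2:**
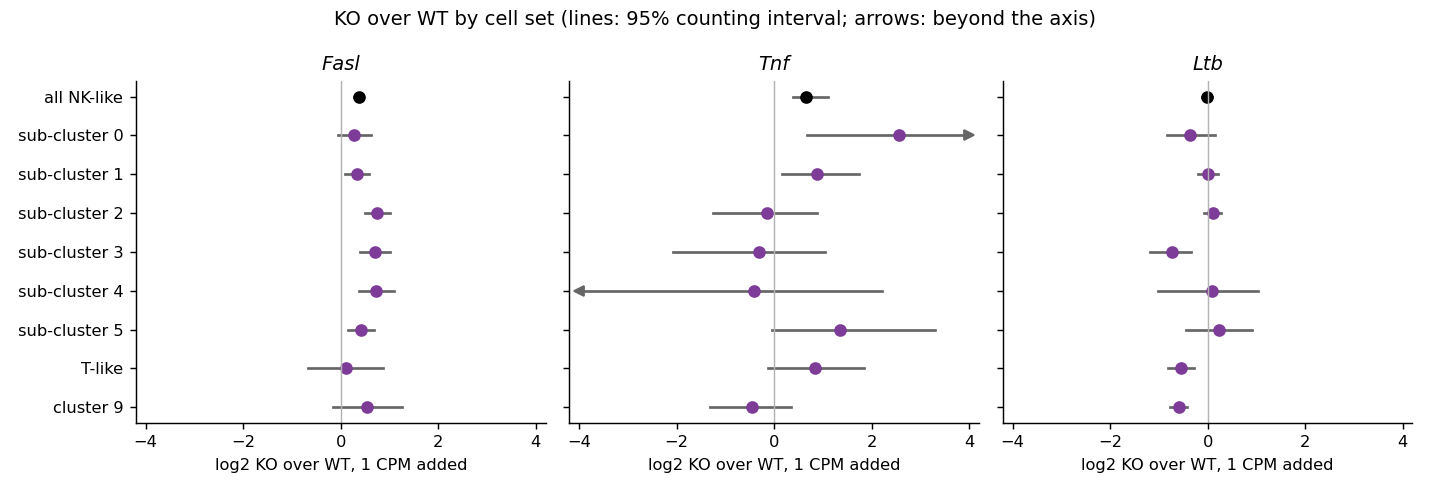
Log2 ratio of KO over WT CPM for Fasl, Tnf and Ltb in all NK-like cells, in the 6 sub-clusters with at least 50 cells in each library, in T-like cells and in cluster 9, with 95% counting intervals. All Fasl points lie above 0, while those of Tnf and Ltb lie on both sides.

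Over the 12 sums of those 6 sub-clusters in each library, Fasl and Ltb ran against each other, with a Pearson r of -0.71 in log2(CPM + 10), -0.78 within the 6 KO sums and -0.96 within the 6 WT sums. These points share 2 libraries and their depth, so r is given as a description. Among 5565 genes with at least 500 UMIs, those with a pattern most like Fasl were Prkcq, which encodes the kinase PKC-theta (r = 0.96), the inhibitory receptor gene Klra3 (0.95) and Lasp1, which encodes an actin-binding protein (0.95). Klra3 belongs to a family of near-identical genes, and its UMIs are uncertain. Those most like Ltb were Ly6e, a GPI-anchored surface protein gene (0.99), the protease inhibitor gene Spint2 (0.96) and the ribosomal protein gene Rpl38 (0.96).

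**Figure D3:**
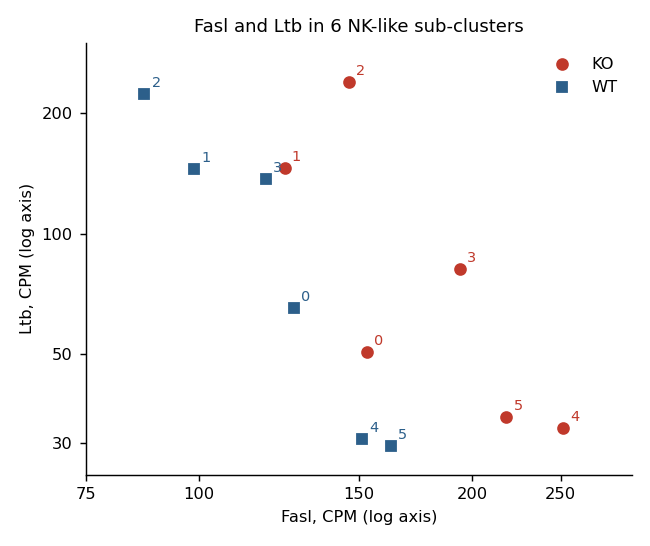
Fasl against Ltb, both in CPM on log axes, for sub-clusters 0 to 5 of the KO (circles) and WT (squares) libraries, labelled by number. Sub-clusters 4 and 5 lie at high Fasl and low Ltb in each library, and the KO points lie to the right of the WT points of the same number.

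Single NK-like cells, thinned to 2500 UMIs, were also compared by the genes they carried together. Ltb-positive cells carried Gzmb, Prf1 and Ccl3 less often and Cd27 more often than Ltb-negative cells. Cells with an Ltb UMI had a Gzmb UMI, for the protease granzyme B, in 78.9% of 445 cases in KO and 74.5% of 573 cases in WT. Cells without Ltb did so in 90.3% in KO and 90.8% in WT. Prf1, which encodes perforin, was seen in 26.7% of Ltb-positive and 37.4% of Ltb-negative KO cells, and in 29.7% and 45.9% of WT cells. For the chemokine gene Ccl3 the shares were 58.0% and 73.1% in KO and 55.7% and 71.3% in WT. Cd27, a TNF receptor family gene of less mature NK cells, went the other way, in 31.7% of Ltb-positive and 23.6% of Ltb-negative KO cells and in 29.3% and 19.4% of WT cells. The intervals of the 2 kinds of cell did not overlap for any of these 4 genes in either library. Cells of 1 library are not replicates, and the cells were cut at a single UMI.

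Fasl-positive cells were more often Gzmb-positive, in 91.4% against 86.9% of cases in KO and 91.4% against 86.7% in WT, and Ccl3-positive, in 74.7% against 68.5% in KO and 74.1% against 66.6% in WT. Ltb was seen in 16.1% of Fasl-positive and 18.7% of Fasl-negative KO cells, with overlapping intervals, and in 14.3% and 19.1% of WT cells. Of 69 KO and 50 WT cells with a Tnf UMI, 30.4% and 34.0% also had Ltb, against 17.5% and 17.6% of cells without Tnf.

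T-like cells and cluster 9 were the other classes in the sort with at least 50 cells per library, and both carried more Ltb and Tnf and less Fasl in CPM than NK-like cells. The T-like cells (70 KO, 110 WT) had Cd3d in 91.4% of KO and 96.4% of WT cells and Cd3e, the gene of the protein used in the sort for CD3ε-negative cells, in 61.4% and 68.2%. Cd5 was seen in 7.14% of KO and 5.45% of WT cells, Lat in 22.9% and 29.1%, and Cd4, Cd8a and Cd8b1 had at most 2 UMIs each in either library. The NK gene Klrd1 was seen in 92.9% of KO and 96.4% of WT T-like cells and Ncr1 in 32.9% and 30.9%, so the cells carried genes of both kinds. Their sum of 6 erythroid markers was 338 CPM in KO and 4616 CPM in WT. Cluster 9 (105 KO, 143 WT cells) was led by H2-Aa, Tmem176b, Tmem176a and Cd74, with Ncr1 in 72.4% of KO and 86.0% of WT cells, Il7r in 54.3% and 55.9% and Eomes in 21.9% and 21%. It stayed unnamed, since markers of innate lymphoid cells and of dendritic cells both led it. The rules that left it unnamed were settled after the clusters had been seen. The remaining 6 KO and 6 WT cells formed another unnamed cluster, led by Gm525, Insl5, Rhox5 and Mt2, and were too few to describe.

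Ltb stood at 489 CPM (415 to 572) in KO T-like cells against 113 CPM in KO NK-like cells, and at 714 CPM (645 to 788) in WT T-like cells against 115 CPM in WT NK-like cells, 4.28-fold and 6.17-fold higher. In cluster 9 it stood at 645 CPM (581 to 713) in KO and 973 CPM in WT, 5.64-fold and 8.41-fold above NK-like cells of the same library. At least 1 Ltb UMI was found in 73.3% of KO and 91.6% of WT cells of cluster 9. In comparison, 6.85% of 5764 tested genes in KO and 5.93% of 6683 in WT were at least 1.5-fold higher in T-like than in NK-like cells, and 6.26% of 5831 and 6.51% of 6745 in cluster 9.

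Fasl stood at 78.9 CPM in KO T-like cells and 73.0 CPM in WT T-like cells, and at 62.9 CPM in KO and 43.3 CPM in WT cells of cluster 9. Against NK-like cells the log2 ratios were -0.89 (-1.53 to -0.33) in KO and -0.63 (-1.13 to -0.19) in WT T-like cells, and -1.21 (-1.73 to -0.75) in KO and -1.37 (-1.92 to -0.91) in WT cells of cluster 9. At least 1.5-fold lower were 21.6% of tested genes in KO and 17.0% in WT T-like cells, and 13.6% in KO and 11.3% in WT cells of cluster 9, so a lower level was common there. NK-like cells held 96.6% of all Fasl UMIs of the kept KO cells and 96.3% of those of the WT cells.

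Lta was concentrated in cluster 9. With 3.42% of the kept KO cells and 4.02% of the WT cells, it held 56.0% of the Lta UMIs of the KO and 52.1% of those of the WT library. The level was 23.8 CPM (14 UMIs) against 0.815 CPM in NK-like cells of the KO library, and 45.7 CPM (37 UMIs) against 1.5 CPM in NK-like cells of the WT library. Few cells carried it, 10 in KO and 14 in WT, and a group of 10 WT cells had 89.2% of its UMIs, so that the counting interval is too narrow. Tnfsf10 stood at 32.3 CPM in KO and 22.3 CPM in WT cells of cluster 9, against 3.18 and 2.67 CPM in NK-like cells, and Tnf at 34.0 and 47.0 CPM against 11.5 and 6.90 CPM. In T-like cells Tnf stood at 63.1 CPM in KO and 34.7 CPM in WT, from 20 and 19 UMIs.

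Between genotypes, Ltb was lower in KO than in WT cells in both classes. The log2 ratio was -0.54 (-0.82 to -0.27) in T-like cells and -0.59 (-0.77 to -0.42) in cluster 9. In cluster 9 the 9 myeloid markers summed to 969 CPM in KO and 26.0 CPM in WT, 6 neutrophil markers to 415 CPM in KO and 1.24 CPM in WT, and 5 B cell markers to 170 CPM in KO and 9.89 CPM in WT. Without cells that carried a UMI of a B cell, macrophage, monocyte or neutrophil gene, 23 of 105 KO and 9 of 143 WT cells, Ltb still stood at 633 CPM in KO and 956 CPM in WT, a log2 ratio of -0.59 (-0.79 to -0.40). For T-like cells without such cells the ratio was -0.63 (-0.93 to -0.34). Lta in cluster 9 had a log2 ratio of -0.91 (-1.94 to -0.02), and of -0.82 (-1.88 to 0.10) without those cells. In T-like cells Tnfsf10 had 1 UMI in KO and 12 in WT.

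Among 13 other TNF superfamily ligand genes, 4 reached 200 UMIs in NK-like cells, and 2 of them were at least 1.5-fold higher and none lower in KO, where 5.73% and 2.62% of all tested genes were, with a median log2 ratio of 0.60 against 0.04 over all tested genes. Tnfsf9, the ligand of the costimulatory receptor 4-1BB, stood at 20.2 CPM in KO and 5.18 CPM in WT, a log2 ratio of 1.78 (1.62 to 2.33). Tnfsf14, which encodes LIGHT and shares the lymphotoxin beta receptor with the lymphotoxin complex, stood at 62.4 CPM in KO and 29.3 CPM in WT, a log2 ratio of 1.07 (0.93 to 1.25). Tnfsf12 stood at 54.3 CPM in KO and 49.4 CPM in WT, and Tnfsf8 at 8.48 CPM in KO and 9.29 CPM in WT. No UMI of Cd40lg, Tnfsf13, Tnfsf18 or Eda was found in NK-like cells of either library, which allows up to 3 counts per library sum.

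Of 9 receptors and decoy receptors of the 5 ligands, 4 reached 200 UMIs, with a median log2 ratio of 0.43. Of these 4, 1 (Tnfrsf23) was past 1.5-fold upward and none downward, where 5.73% and 2.62% of all tested genes were. Tnfrsf1b, which encodes TNFR2, stood at 263 CPM in KO and 176 CPM in WT, a log2 ratio of 0.58 (0.51 to 0.65). Tnfrsf1a, which encodes TNFR1, stood at 31.7 CPM in KO and 25.8 CPM in WT, and Fas at 12.6 CPM in KO and 10.4 CPM in WT. The decoy TRAIL receptor gene Tnfrsf23 stood at 9.70 CPM in KO and 4.90 CPM in WT. Its paralogs Tnfrsf22 and Tnfrsf26 lie close in sequence, so its UMIs, and with them the only call past 1.5-fold among these receptors, are uncertain. Few UMIs came from Ltbr, 3 in KO and 1 in WT, or from Tnfrsf10b, 13 in KO and 14 in WT.

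Of 18 other TNF receptor family genes, 6 reached 200 UMIs, with a median log2 ratio of 0.47. Of these 6, 2 were at least 1.5-fold higher in KO and none was lower, where 5.73% and 2.62% of all tested genes were. The higher 2 were Tnfrsf26, at 21.5 CPM in KO and 9.91 CPM in WT, and Tnfrsf12a, the TWEAK receptor gene, at 12.6 CPM in KO and 7.29 CPM in WT. The UMIs of Tnfrsf26 are as uncertain as those of its paralog Tnfrsf23. Relt stood at 15 CPM in KO and 9.85 CPM in WT, and Cd27 at 138 CPM in KO and 106 CPM in WT. Tnfrsf9, the receptor paired with Tnfsf9, had 496 CPM in KO and 499 CPM in WT. It was named for that pairing after its value had been seen.

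**Figure D4:**
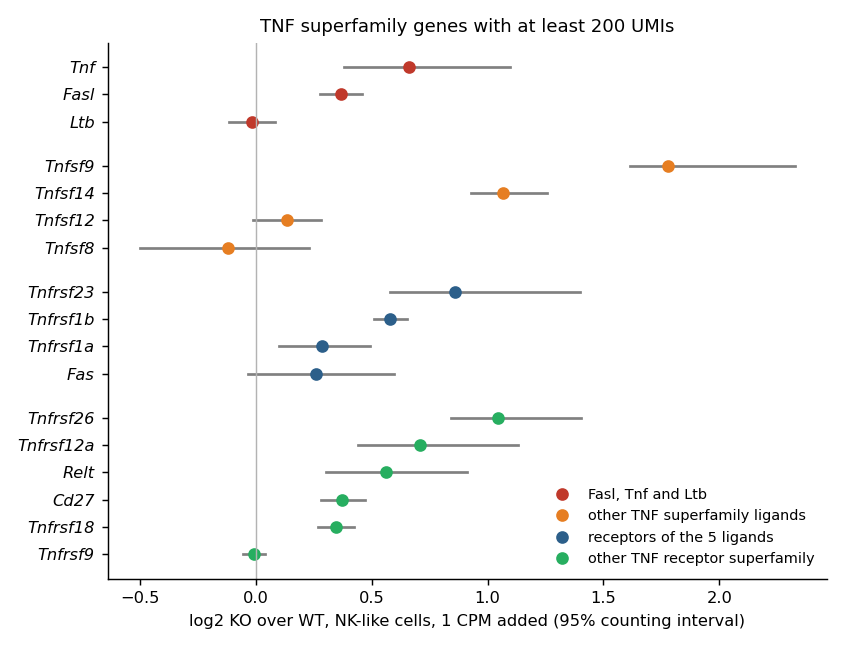
Log2 ratio of KO over WT in NK-like cells, with 95% counting intervals, for the TNF superfamily ligands and receptors that reached 200 UMIs over both libraries. Tnfsf9 has the highest ratio of the 17, at 1.78, and Tnfrsf9, Ltb and Tnfsf8 lie at or below 0.

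All 24 genes of the death receptor signalling list reached 200 UMIs, with 2 higher and 1 lower in KO by 1.5-fold or more, which is close to the 5.73% and 2.62% of all tested genes, and the median log2 ratio was 0.14. The higher 2 were Map3k14, the NIK kinase gene of the non-canonical NF-kB pathway downstream of the lymphotoxin beta receptor, at 44.0 CPM in KO and 15.2 CPM in WT, and Birc3, which encodes the apoptosis inhibitor cIAP2, at 112 CPM in KO and 46.8 CPM in WT. The lower 1 was Mlkl, the executor of necroptosis, at 5.14 CPM in KO and 9.02 CPM in WT. Bak1, a mitochondrial pore gene, stood at 50.8 CPM in KO and 69.7 CPM in WT. Casp8, the initiator caspase, stood at 99.5 CPM in KO and 81.1 CPM in WT. It was named as the first enzyme of the pathway, after its value had been seen.

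Of 7 genes that shed TNF and Fas ligand from the membrane or control that step, 4 reached 200 UMIs and none was past 1.5-fold. Of all tested genes, 5.73% were higher and 2.62% lower by as much. The median log2 ratio of the 4 was 0.07. The proteases Adam17 and Adam10 stood at 18.8 and 29.5 CPM in KO and at 21 and 23.7 CPM in WT.

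Of 12 genes for proteins that bind AU-rich mRNAs such as that of Tnf, 4 were at least 1.5-fold higher and none lower in KO. Of all tested genes, 5.73% were higher and 2.62% lower by as much. The median log2 ratio of the 12 was 0.21. Zc3h12a, which encodes the RNase Regnase-1, stood at 161 CPM in KO and 55.8 CPM in WT, and Zfp36, which encodes tristetraprolin, a protein that speeds the decay of Tnf mRNA, at 339 CPM in KO and 146 CPM in WT. Its relatives Zfp36l1 and Zfp36l2 stood at 153 and 917 CPM in KO and at 84.1 and 569 CPM in WT.

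Of 19 transcription factor genes tied to these ligands, 18 reached 200 UMIs, 6 were at least 1.5-fold higher and none lower in KO, against 5.73% and 2.62% of all tested genes, with a median log2 ratio of 0.49. Nfkb1 stood at 299.8 CPM in KO and 148 CPM in WT, Egr1 at 89.0 CPM in KO and 44.5 CPM in WT, Irf7 at 75 CPM in KO and 47.9 CPM in WT, and Rel at 79.3 CPM in KO and 51.3 CPM in WT. Under the WT make-up the median of this list was 0.19, and those of the other ligands and the receptors of the 5 ligands were 0.46 and 0.24. The median of all tested genes under that make-up was 0.06. Among 12 effector and activation genes, 6 were past 1.5-fold upward and 1 downward, against 5.73% and 2.62% of all tested genes. Their median was 0.59, or 0.18 under the WT make-up. Ifng, the interferon gamma gene, stood at 726 CPM in KO and 343 CPM in WT, Ccl4 at 3949 CPM in KO and 1689 CPM in WT, and Nr4a1 at 1083 CPM in KO and 226 CPM in WT. Gzmc stood at 238 CPM in KO and 1004 CPM in WT. For 15 housekeeping genes the median was -0.01, with Gapdh and Pgk1 the 2 genes past 1.5-fold, both lower in KO. Of all tested genes, 5.73% were higher and 2.62% lower by as much, so these 2 genes are no steady controls here.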

How the data were processed

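The deposited tables held UMI counts per gene and barcode, whole numbers with no normalization by the authors, per the labels and the values. The submitters' processing notes name Cell Ranger 2.0.2, Seurat and the build mm10, which is GRCm38. The sources used here do not give the annotation or how cells were called. KO barcodes numbered 3110 (13407906 UMIs, 1464 to 29202 each) and WT barcodes 3574 (19553440 UMIs, 2364 to 52557 each).

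Kept cells of both libraries were clustered together (scanpy 1.11.5, leidenalg 0.10.2; counts per 10000, log1p, 2000 variable genes without the 5 ligands, 30 components, 15 neighbours, Leiden resolution 0.8, then 0.6 within NK-like cells) and named from marker lists. Scrublet called 0 doublets, so doublets were kept. UMIs were summed per library and cell set and scaled to CPM, and log2 ratios had 1 CPM added. Poisson (sums), conditional binomial (ratios, no CPM added) and Clopper-Pearson (shares) intervals cover counting error only. Since UMIs are treated as independent, the first 2 kinds are too narrow for a gene whose UMIs sit in few cells. Differences between thinned shares have Newcombe intervals. Ratios and intervals were tested on simulated counts with independent UMIs, which cannot show the effect of UMIs that sit in few cells. In bulk-like sums, fewer expressing cells and less RNA per cell cannot be told apart. Genes named were the 5 ligands, per list up to 4 genes (100 UMIs or more) with ratios farthest from 0, and the 3 most similar genes. The ligands, lists and tests were chosen with earlier results of these data known. TMM factors came from edgeR 4.0.16.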

Additional observations from a re-analysis of the deposited data

Results flagged for a closer look

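The KO to WT difference in Ltb went in opposite directions in different cell sets, with each counting interval on its own side of 0. It was negative in T-like cells (log2 ratio -0.54), in cluster 9 (-0.59) and in NK-like sub-cluster 3 (-0.74). It was positive (1.45) in NK-like sub-cluster 7, a set of 19 KO and 132 WT cells high in cycling genes and in depth. The difference between these sets was not tested. All KO Ltb UMIs of sub-cluster 7 came from 10 cells, so its counting interval is too narrow.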

How the results depend on the processing

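In NK-like cells the log2 ratio of KO over WT for Fasl lay between 0.29 and 0.54 over 17 alternatives, always above 0. The values outside the counting interval of the reported ratio were 0.49 under the WT make-up (each KO sub-cluster given its WT share of cells) and 0.54 when sub-clusters under 50 cells were also left out. Tnf lay between 0.35 (10 CPM added) and 0.74. Ltb was -0.19 over all kept cells, 0.14 under the WT make-up and -0.10 under it without sub-clusters under 50 cells. Tnfsf10 ranged from -0.15 to 0.55 and Lta from -0.88 to -0.09. Differences in thinned shares kept their sign for Fasl (3.82 to 5.63 points) and Tnf (0.99 to 1.65 points). That of Lta was -0.47 points at 4000 UMIs per cell and -0.29 points without cycling cells, with an interval below 0 only in the second setting. Genes at least 1.5-fold higher and lower numbered 457 and 209 of 7975 as reported. They numbered 876 and 551 of 16521 with no UMI minimum, and 293 and 96 of 7975 under the WT make-up. With a minimum of 50 UMIs, 416 of 10312 genes were lower. The number of genes counted thus grew along with these calls. At the coarser sub-cluster resolution the span was 1.16-fold (KO) and 1.08-fold (WT) for Fasl, and 1.85-fold (KO) and 1.70-fold (WT) for Ltb, with 2 sub-clusters in place of 6. The cause of the other shifts was not tested. In cluster 9 without the 10 cells of each library with the most UMIs of the gene, the log2 ratio was -2.67 for Lta, -1.43 for Tnf and -0.80 for Ltb. Only 10 KO cells carried Lta there, so this rule took out every KO Lta UMI by design. Tnf was carried by 14 KO and 26 WT cells, so the rule took most carrying cells in KO but not in WT. The Lta and Tnf values of this setting therefore say nothing of a KO to WT difference. This leaving out of 10 cells in cluster 9, that of sub-clusters under 50 cells and that of cells with B, myeloid or neutrophil UMIs were chosen after seeing the data. No paired analysis was possible because each genotype had 1 library.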
